A study of Mus musculus with 35 samples.

Results

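The dorsal brain (dB) was set against the limb in 12 of the 35 libraries of the series, 6 of dB and 6 of limb, chosen by their sample labels and not by any measured value. All 12 came from wild-type CD1 mouse embryos at embryonic day 11.5 that had received no treatment. The labels call the brain tissue dorsal neural tube, and the name dorsal brain is that of the study. Each library held polyadenylated RNA from tissue pooled over several embryos and extracted with Trizol, with embryos of both sexes used according to the methods, and the study describes 6 independent biological replicates of each tissue. The other libraries were of ventral brain (vB) and of the frontonasal, mandibular and maxillary prominences of the face (FNP, MNP and MXP). Among these, 6 vB and 6 MNP libraries served as another comparison of brain with mesenchyme-rich tissue that shares no library with dB and limb.

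At this stage the wall of the neural tube is an epithelium of dividing progenitors whose apical side faces the ventricle. Notch signalling holds part of these cells in the progenitor state while proneural transcription factors push others to leave the cycle as neurons, and signals from the roof plate, the dorsal midline of the tube, pattern its dorsal wall. The limb bud is by contrast a core of mesenchyme under a sheet of ectoderm. Its outgrowth depends on fibroblast growth factors (Fgf) of the apical ectodermal ridge, its anterior to posterior pattern on Sonic hedgehog from the zone of polarizing activity, and its proximal to distal pattern on the Hox genes at the 5′ ends of the HoxA and HoxD clusters. Bulk values of this kind do not tell fewer cells of a type apart from less RNA per cell.

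Expression was read as FPKM, a level per transcript length and per mapped fragments of the library, summed over the transcripts of each gene symbol. Differences are those of log2(FPKM + 1) between dB and limb, so that a positive value means a higher level in dB and low levels give a smaller difference than their ratio would. A gene was called when, on that scale, it changed 2-fold or more and the p of limma, adjusted by Benjamini-Hochberg, was under 0.05. A value after ± beside a log2 difference is the standard error of the fit.

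Total FPKM lay between 451965 and 894292 over the 12 libraries. Between 12441 and 12955 genes reached 1 FPKM in dB libraries and between 11742 and 12461 in limb libraries, and read coverage per FPKM lay between 2.87 and 5.51 over the 12 libraries. Replicate 1 of both tissues stood apart, since an RNA of 75 bases (AK204943) took 25.2% of all FPKM in dB replicate 1 and 36.0% in limb replicate 1. Leaving out transcripts under 200 bases and rescaling the rest gave 1643 called genes in place of 1633. The tissues matched their labels. Summed over 10 markers of neural progenitors and neurons, dB libraries held 769 to 1227 FPKM and limb libraries 13.8 to 40.7 FPKM. The highest limb value, 40.7 FPKM, was that of replicate 1, and the next was 18.1 FPKM. Limb replicate 4 was the lowest limb library for many limb genes, and dB replicates 1 and 4 stood apart in genes of brain regions, as given below. Without replicate 1 of both tissues 1660 genes were called, and without replicate 4 of both 1679. Limb factors stood apart in the other direction, with Hand2, Tbx5 and Pitx1 at no more than 0.379 FPKM in any dB library.

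Of 13934 genes tested, 1633 (11.7%) were called, 1111 (7.97%) of them higher and 522 (3.75%) lower in dB than in limb. Thus 68.0% of the calls were of genes with more RNA in dB, and with quantile normalization 906 genes were higher and 654 lower. Replicates 1 to 3 share no run number with replicates 4 to 6 in the names of their deposited tables. Over both tissues each set holds more than 1 run, and limb replicate 4 carries a run number that no dB library has. In replicates 1 to 3 alone 1790 genes were called, in replicates 4 to 6 alone 1306, and with the run as a block 1585. The median difference over all tested genes was 0.02, so the scale itself was nearly centred. At a fold change of 8 or more stood 150 genes that were higher and 43 that were lower in dB. The 6 dB values and the 6 limb values did not overlap for 3106 genes (22.3% of those tested), and 1516 of the called genes were among them. Of the called genes, 21 were listed at 0 in all 6 dB libraries and 9 in all 6 limb libraries.

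**Figure D1:**
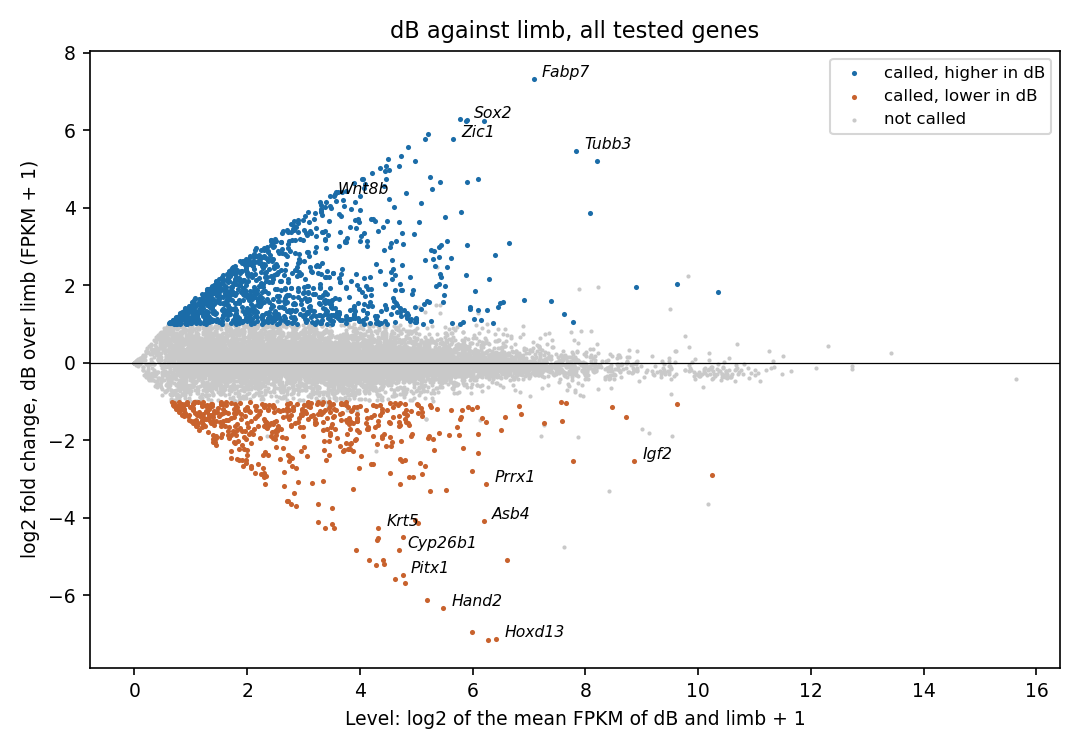
Level of each of the 13934 tested genes, as log2 of the mean FPKM of dB and limb plus 1 (x axis), against its log2 fold change of dB over limb in FPKM + 1 (y axis), 1 point per gene. Above the midline lie the 1111 genes called higher in dB (blue) and below it the 522 called lower (orange), with Fabp7 at the top and Hoxd13 near the lower edge, and genes not called are grey.

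Genes of neural progenitors were higher in dB. Of the 20 on the list, 17 were higher in dB (85.0%, against 7.97% of all tested genes) and none was lower, and the median difference of the list was 4.11. Fabp7, which encodes a carrier of fatty acids in radial glia, had 179 to 317 FPKM (median 280.2) in dB and 0.0716 to 4.85 FPKM (median 0.270) in limb, a difference of 7.33 ± 0.49 (adjusted p = 3.03e-14). Sox2, a transcription factor that keeps neural progenitors in their state, had 73.7 to 139.6 FPKM (median 127) in dB and 0.151 to 2.64 FPKM (median 0.266) in limb, a difference of 6.25 ± 0.29 (adjusted p = 3.94e-18). For both genes the lowest dB library was far above the highest limb library, and that limb library was replicate 1. The related factors Sox3 and Sox1 gave differences of 5.77 ± 0.39 and 4.73 ± 0.50. Pax6, which patterns the forebrain and its progenitors, had 30.1 to 53.7 FPKM (median 44.2) in dB and 0 to 0.534 FPKM (median 0.0689) in limb. Zic1, a dorsal neural factor, had 73.7 to 124 FPKM (median 100.4) in dB and 0.195 to 1.196 FPKM (median 0.903) in limb, and its difference was 5.78 ± 0.48 (adjusted p = 6.84e-12). Next to Pou3f3, a POU factor of the developing cortex that had 19.3 to 77.8 FPKM (median 70.6) in dB and 0.144 to 1.41 FPKM (median 0.473) in limb, lies the long non-coding RNA 2610017I09Rik, also named Pantr1. It had 105.2 to 172 FPKM (median 150.2) in dB and 0.161 to 3.46 FPKM (median 0.791) in limb. It lies at chr1:42648200-42694825 in mm10, and Pou3f3 follows at chr1:42697146-42700209. Neither gene had overlapping values.

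Some progenitor genes were shared by the tissues to a degree. Lhx2, a LIM homeobox factor needed in the cortex and in the limb, had 59.6 to 187 FPKM (median 163) in dB and 36.7 to 57.1 FPKM (median 41.9) in limb, a ratio of means of 3.19. Msi1, an RNA-binding protein of progenitors, had 50.3 to 156 FPKM (median 145) in dB and 8.21 to 40.3 FPKM (median 30.5) in limb. The values of neither gene overlapped. Hes1, Slc1a3 and Prom1 were not called: Hes1, a Notch target found in many tissues, had a median of 30.6 FPKM in dB and 35.1 FPKM in limb, and Prom1, a membrane protein of apical protrusions with a low-data estimate in 2 libraries, 37.7 FPKM in dB and 34.0 FPKM in limb.

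Hes5, which encodes a transcriptional repressor induced by Notch in neural progenitors, had 90.3 to 138 FPKM (median 124) in dB and 0.0537 to 3.49 FPKM (median 0.249) in limb, a difference of 6.27 ± 0.53 (adjusted p = 1.02e-11). The limb library with the highest value was again replicate 1. The Notch effector Rbpj binds the core motif GTGGGAA, and the 250 bases before the start of Hes5 hold 2 matches, counting both strands. They are shown here because Hes5 stands at the head of the Notch genes below, with the matches in capitals (RefSeq, GRCm38, chr4:154960673-154960922, plus strand):
Hes5 upstream: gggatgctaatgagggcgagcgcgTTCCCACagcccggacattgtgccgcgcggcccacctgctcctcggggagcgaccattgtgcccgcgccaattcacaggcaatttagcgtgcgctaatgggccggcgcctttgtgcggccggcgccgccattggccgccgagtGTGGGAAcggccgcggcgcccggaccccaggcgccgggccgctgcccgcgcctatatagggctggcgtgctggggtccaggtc
Of 32851 mouse promoters of the same length, 5.42% hold a match and 0.161% hold 2 or more. A match is a run of letters and not a measured binding site.

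All 12 tested genes of the proneural and Notch ligand list were higher in dB, against 7.97% of all tested genes, with a median difference of 3.74. The list does not hold every Notch ligand. Neurog2, a proneural factor of excitatory neurons, had 25.5 to 75.5 FPKM (median 59.9) in dB and 0 to 0.692 FPKM (median 0.0247) in limb, a difference of 5.57 ± 0.24 (adjusted p = 4.44e-19). Insm1, a zinc finger factor of newborn neurons, varied more among dB libraries, at 8.09 to 48.2 FPKM (median 32.9), against 0.0762 to 0.880 FPKM (median 0.148) in limb. The Notch ligand Dll1 had 18.4 to 30.3 FPKM (median 28.2) in dB and 0.383 to 2.02 FPKM (median 1.19) in limb, and Dll3, which acts against Notch within the same cell, had 23.6 to 33.2 FPKM (median 28.8) in dB and 0.563 to 2.65 FPKM (median 1.32) in limb. The receptor Notch1 differed less, with a median of 15.9 FPKM in dB and 4.93 FPKM in limb and a difference of 1.61 ± 0.33. Jag1, a Notch ligand outside that list, was not called and had medians of 10.8 FPKM in dB and 10.7 FPKM in limb.

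All 25 neuronal genes were higher in dB, against 7.97% of all tested genes. The values of the tissues overlapped only for Rbfox3, which was not called without dB replicate 2 (difference 0.98) or limb replicate 4 (0.94). Tubb3, the neuronal beta-tubulin, had 321 to 559 FPKM (median 468) in dB and 6.47 to 17.3 FPKM (median 8.26) in limb, a difference of 5.47 ± 0.27 (adjusted p = 1.39e-17). Stmn3, a stathmin that binds tubulin, had 65.2 to 132 FPKM (median 112) in dB and 0 to 3.49 FPKM (median 0.0529) in limb. Ina, a neurofilament subunit, had 29.8 to 84.5 FPKM (median 46.6) in dB and 0 to 1.24 FPKM (median 0.0417) in limb. In each of these the groups were far apart, and of the 3 genes only Tubb3 had several FPKM in every limb library. Genes of synapses were at lower levels, and Snap25, a protein of vesicle fusion, had 3.30 to 8.05 FPKM (median 5.89) in dB and 0.0382 to 0.269 FPKM (median 0.128) in limb.

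**Figure D2:**
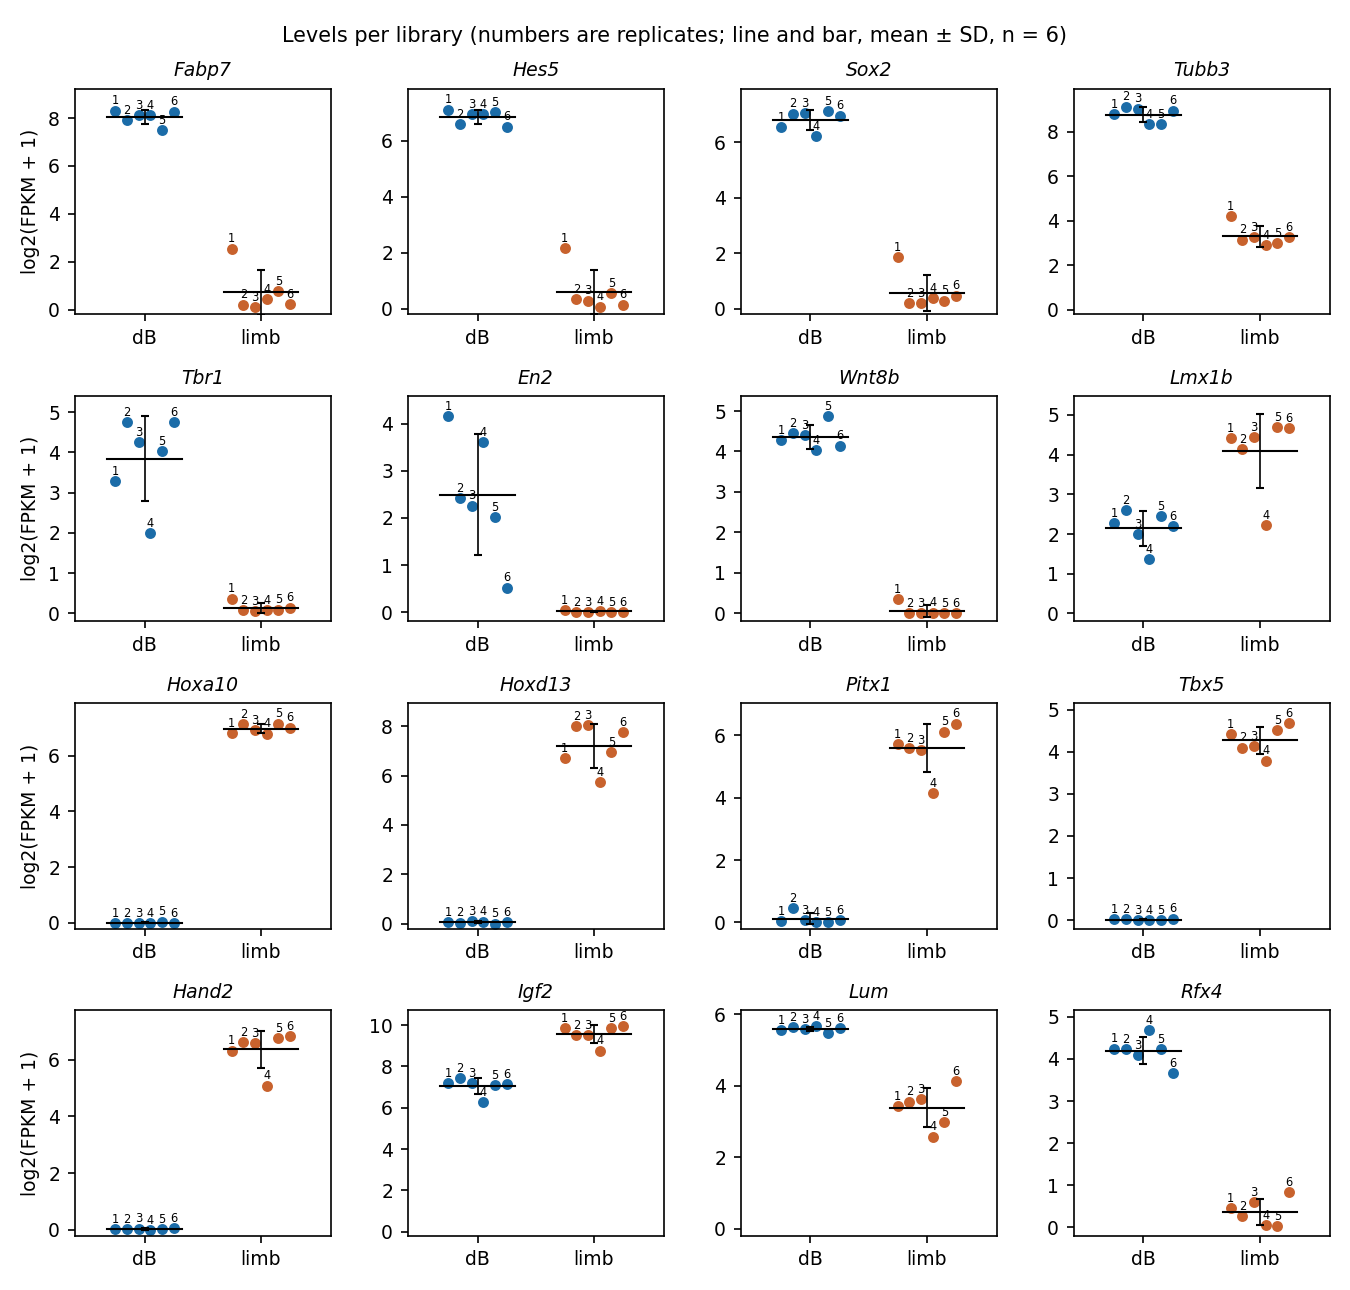
Log2(FPKM + 1) of 16 genes in the 6 dB libraries (left, blue) and the 6 limb libraries (right, orange), each point 1 library with its replicate number and each line and bar the mean ± SD. The groups are apart in all 16 except Lmx1b, where limb replicate 4 lies among the dB libraries, and limb replicate 1 is the highest limb library for Fabp7, Hes5, Sox2, Tubb3, Tbr1 and Wnt8b.

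Genes that mark the forebrain and the midbrain were high in dB. Of 16 forebrain genes 14 were higher in dB (87.5%, median difference 3.69), and of 12 midbrain genes 10 were (83.3%, median difference 2.43). Of all tested genes 7.97% were higher. Otx2, a homeobox gene of both regions, had 51.3 to 104.7 FPKM (median 72.0) in dB and 0 to 1.17 FPKM (median 0.0338) in limb, a difference of 5.90 ± 0.26 (adjusted p = 5.83e-19). Nr2e1, an orphan receptor of forebrain progenitors, had 19.1 to 43.1 FPKM (median 38.9) in dB and 0 to 1.11 FPKM (median 0.0148) in limb. Emx1 and Emx2, homeobox genes of the dorsal telencephalon, had medians of 36.4 and 43.8 FPKM in dB and 1.54 and 5.01 FPKM in limb. Of the midbrain genes, Tal2, a factor of midbrain GABAergic neurons, had 19.7 to 41.1 FPKM (median 33.7) in dB and 0.139 to 0.535 FPKM (median 0.254) in limb, a difference of 4.62 ± 0.34 (adjusted p = 4.73e-13). Dmbx1 had 3.19 to 11.6 FPKM (median 7.71) in dB and 0.0341 to 0.391 FPKM (median 0.195) in limb, and Lhx1 had 3.07 to 13.1 FPKM (median 6.11) in dB and 0 to 0.357 FPKM (median 0.179) in limb. The groups stayed apart for each of these genes. Hox genes of the hindbrain and spinal cord were near 0 in dB: Hoxb2 had 0 to 0.131 FPKM (median 0.0662) in dB against 1.34 to 6.70 FPKM (median 2.95) in limb, and Hoxa2 had 0 to 0.0716 FPKM (median 0.0139) in dB against 1.52 to 3.27 FPKM (median 1.64) in limb. Hoxc8 was listed at 0 in all 6 dB libraries and had 1.02 to 2.41 FPKM (median 1.65) in limb. Of that list of 10 genes only 4 passed the filter on low values, and 3 of these were called (75%, against 11.7% of all tested genes). The filter asks for a mean of 1 FPKM in any tissue. These 3 genes passed it through tissues other than dB, which favours a call of lower in dB.

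The dB libraries differed among themselves in these regional genes. Tbr1, a factor of early cortical neurons, had 8.74, 25.9, 18.04, 3.01, 15.4 and 26.0 FPKM in dB replicates 1 to 6, against 0.0402 to 0.292 FPKM (median 0.0614) in limb. Replicates 1 and 4 were the lowest. En2, a gene of the midbrain and its border with the hindbrain, had 16.9, 4.38, 3.79, 11.2, 3.05 and 0.432 FPKM in the same libraries, against 0 to 0.0321 FPKM (median 0) in limb, and here replicates 1 and 4 were the highest. Ttr, which encodes transthyretin and marks the choroid plexus, ranged from 0.395 FPKM in replicate 4 to 21.3 FPKM in replicate 2, against 0 to 0.0886 FPKM (median 0.0144) in limb. Even so, Tbr1 and En2 were called with differences of 3.71 ± 0.41 and 2.49 ± 0.56. The counts of called forebrain genes were 14 without replicate 1 of both tissues and 14 without replicate 4, and those of midbrain genes were 11 and 11.

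**Figure D3:**
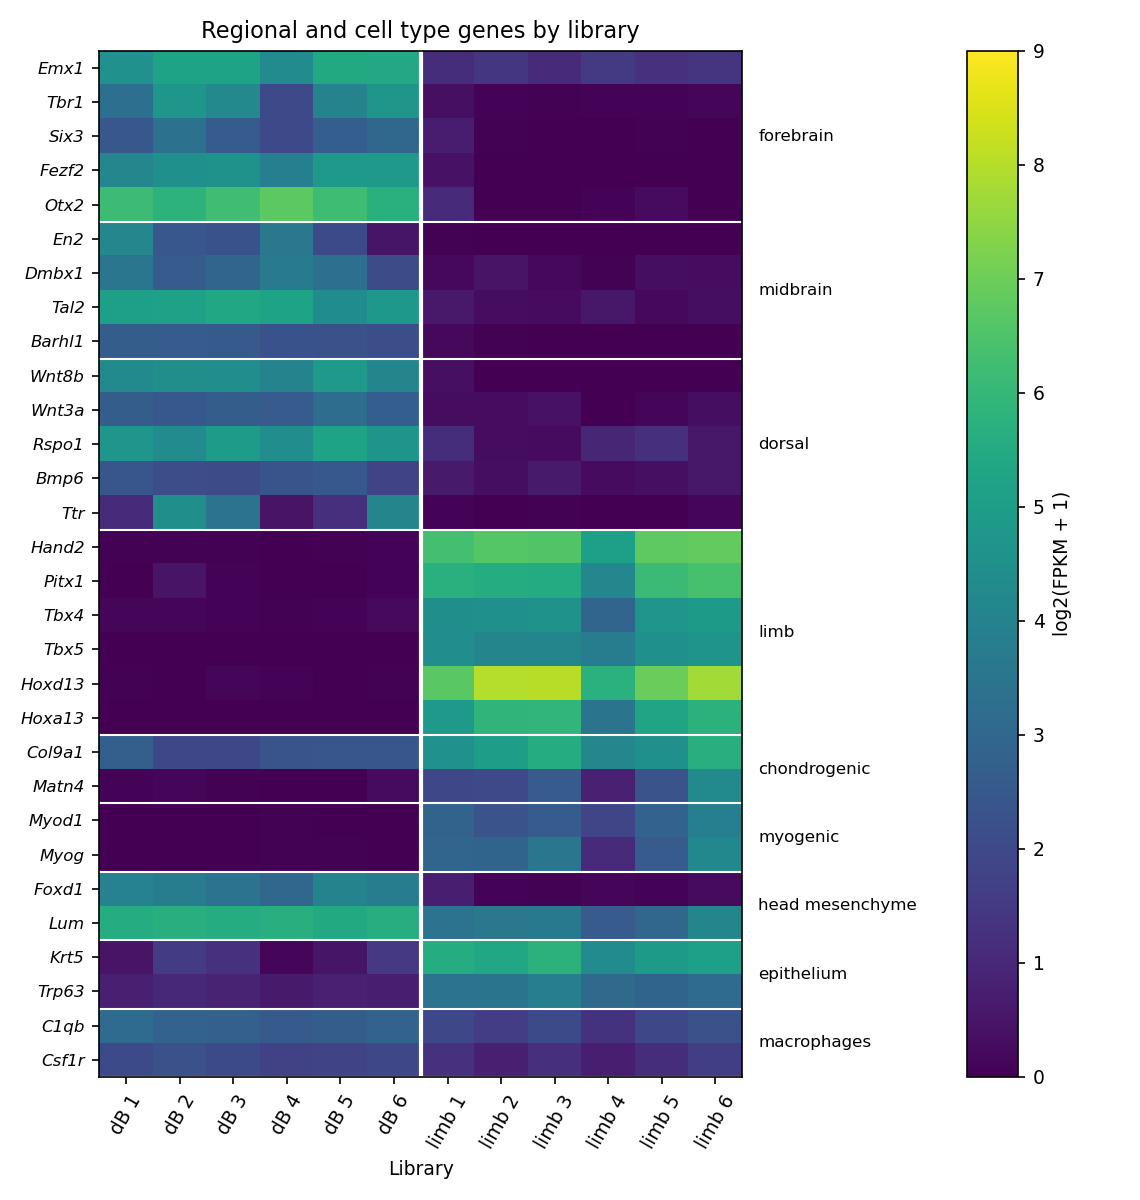
Log2(FPKM + 1) as colour, from dark at 0 to yellow at 9, for genes of brain regions, limb, cartilage, muscle and other cell types (rows) in the 6 dB libraries (left columns) and the 6 limb libraries (right columns). Tbr1 is darker in dB replicates 1 and 4 than in the other dB libraries, Ttr is bright in dB replicates 2, 3 and 6, and the limb genes are at or near 0 in every dB library.

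Of 18 genes of the dorsal neural tube and roof plate, 11 were higher and Lmx1b was lower in dB (66.7% called, against 11.7% of all tested genes). Wnt8b, a Wnt ligand of the dorsal midline of the forebrain, had 15.3 to 28.2 FPKM (median 19.3) in dB and 0 to 0.278 FPKM (median 0) in limb, a difference of 4.30 ± 0.16 (adjusted p = 7.80e-21). Rspo1, a secreted factor that strengthens Wnt signalling, had 19.5 to 36.4 FPKM (median 24.8) in dB and 0.211 to 1.33 FPKM (median 0.733) in limb, a difference of 3.96 ± 0.25. Wnt3a had 4.59 to 8.27 FPKM (median 5.29) in dB and 0 to 0.366 FPKM (median 0.230) in limb, and Wnt1 had 1.78 to 7.07 FPKM (median 4.52) in dB and 0 to 0.0218 FPKM (median 0) in limb. Pax3 and Pax7, paired box factors of the dorsal tube and of muscle precursors, had medians of 9.46 and 3.49 FPKM in dB and 2.09 and 0.137 FPKM in limb, and both were called. Lmx1b, which acts in the roof plate and in the dorsal limb mesenchyme, had 1.57 to 5.05 FPKM (median 3.70) in dB and 3.70 to 24.8 FPKM (median 20.5) in limb, a difference of -1.95 ± 0.31 (adjusted p = 3.30e-06). Its values overlapped through limb replicate 4, which lay at 3.70 FPKM. Msx1, Msx2, Bmp7, Gdf7, Zic2 and Zic5, dorsal genes of which several also act in the limb, were not called.

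Genes of the ventral midline had reads in dB as well. Shh had 1.90 to 10.2 FPKM (median 4.65) in dB and 1.68 to 7.57 FPKM (median 4.71) in limb, and it was not called (difference 0.31 ± 0.37). In vB libraries it had 16.1 to 35.6 FPKM (median 26.3). Foxa2, a floor plate factor, had 0.299 to 5.82 FPKM (median 2.74) in dB, 0.875 to 10.2 FPKM (median 5.37) in vB and 0 to 0.0466 FPKM (median 0) in limb. Within dB it was highest in replicates 1 and 4, at 5.82 and 5.63 FPKM, as was Shh at 10.2 and 10.01 FPKM. Nkx2-1, a ventral forebrain factor, had 0.429 to 5.13 FPKM (median 2.03) in dB, 6.93 to 102 FPKM (median 95.0) in vB and 0 to 2.87 FPKM (median 0.0271) in limb, where replicate 1 was again the highest, and it was not called between dB and limb.

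On the limb side, all 15 genes at the 5′ ends of the HoxA, HoxC and HoxD clusters were lower in dB, against 3.75% of all tested genes. Of the 15, 11 were listed at 0 in all 6 dB libraries. These 11 passed the filter on low values through other tissues, which favours a call of lower in dB. Hoxd13, which patterns the digits, had 0 to 0.0804 FPKM (median 0.0459) in dB and 52.6 to 262 FPKM (median 169) in limb, a difference of -7.14 ± 0.21 (adjusted p = 9.40e-24). Hoxa10, of the upper limb segments, had 0 to 0.0318 FPKM (median 0) in dB and 109.9 to 141 FPKM (median 123) in limb, a difference of -6.95 ± 0.06 (adjusted p = 4.68e-40). Both differences were larger than the range of values within either tissue. Among the genes listed at 0 in every dB library, Hoxa11 had 26.2 to 42.6 FPKM (median 37.8) in limb and its antisense transcript Hoxa11as 62.4 to 210.1 FPKM (median 169). Without strand the reads of Hoxa11 and Hoxa11as cannot be told apart where they overlap, at chr6:52245082-52245767 in mm10. Hoxd12, Hoxd11 and Hoxd10, also at 0 in every dB library, had 21.6 to 70.7 FPKM (median 57.0), 48.9 to 102 FPKM (median 65.3) and 40.3 to 54.5 FPKM (median 47.1) in limb. Hoxa13, of the autopod, was at 0 in every dB library and had 10.1 to 59.5 FPKM (median 45.7) in limb. The HoxC genes were at lower levels, from a median of 1.10 FPKM for Hoxc12 to 15.9 FPKM for Hoxc10 in limb. Hoxc12 was the one gene of the list that lost its call without a single library. It was not called without limb replicate 2 (difference -0.93) and did not pass the filter on low values without limb replicate 3.

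Of 25 transcription factors of limb mesenchyme, 15 were lower and 2 were higher in dB (68% called, against 11.7% of all tested genes). The median difference of the list was -1.85. Hand2, which sets up the posterior limb bud, had 0 to 0.0561 FPKM (median 0.0292) in dB and 32.9 to 113 FPKM (median 95.5) in limb, a difference of -6.32 ± 0.31 (adjusted p = 8.85e-18). Tbx15, a T-box gene of proximal mesenchyme, had 0.344 to 2.44 FPKM (median 1.38) in dB and 37.1 to 58.4 FPKM (median 52.5) in limb, a difference of -4.48 ± 0.49 (adjusted p = 3.45e-09). Neither gene had overlapping values. Prrx1 and Prrx2, homeobox genes of mesenchyme in the limb and the head, were not near 0 in dB: Prrx1 had 7.46 to 21.5 FPKM (median 15.1) in dB and 93.8 to 158 FPKM (median 136) in limb, and Prrx2 had 11.9 to 19.3 FPKM (median 14.6) in dB and 101 to 122 FPKM (median 109) in limb. Shox2 likewise had 10.3 to 31.1 FPKM (median 19.6) in dB and 46.3 to 113 FPKM (median 71.0) in limb. The 2 genes higher in dB were Irx3, with 17.8 to 32.4 FPKM (median 25.5) in dB and 2.28 to 16.6 FPKM (median 8.15) in limb, and Irx5, with 11.5 to 17.3 FPKM (median 15.5) in dB and 1.44 to 7.57 FPKM (median 4.20) in limb. Both are Iroquois factors that also pattern the neural tube.

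The limb libraries held RNA of forelimb and hindlimb genes alike. Tbx5, the forelimb T-box gene, had 0 to 0.0234 FPKM (median 0.00586) in dB and 12.8 to 24.5 FPKM (median 18.4) in limb, a difference of -4.26 ± 0.14 (adjusted p = 2.83e-22). Tbx4, its hindlimb counterpart, had 0.0287 to 0.159 FPKM (median 0.0753) in dB and 6.70 to 28.6 FPKM (median 22.7) in limb, a difference of -4.25 ± 0.21. Pitx1, which specifies the hindlimb, had 0 to 0.379 FPKM (median 0.0391) in dB and 16.9 to 82.2 FPKM (median 49.4) in limb, a difference of -5.48 ± 0.36 (adjusted p = 3.26e-14). The lowest limb value was that of replicate 4 for each of the 3 genes, at 12.8, 6.70 and 16.9 FPKM. Replicate 4 was also lowest for Hoxd13, Hoxa13 and Hand2, at 52.6, 10.1 and 32.9 FPKM. Islr2, a membrane protein of axons that was listed with the hindlimb genes, was higher in dB, with 16.3 to 89.2 FPKM (median 49.4) in dB and 0.270 to 2.80 FPKM (median 1.11) in limb.

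Of 20 genes of the limb signalling centres 10 were lower and Fgf17 was higher in dB (55% called, against 11.7% of all tested genes). Fgf8, the main ridge Fgf, had 3.54 to 8.95 FPKM (median 7.08) in dB and 17.7 to 57.4 FPKM (median 34.7) in limb, a difference of -2.14 ± 0.39 (adjusted p = 3.88e-05), and Fgf10, the Fgf of the underlying mesenchyme, had 0.0619 to 0.191 FPKM (median 0.120) in dB and 6.51 to 8.99 FPKM (median 8.01) in limb, a difference of -2.95 ± 0.18 (adjusted p = 2.03e-15). Neither ligand had overlapping values, though Fgf8 was present in every dB library. Grem1, a secreted Bmp inhibitor that keeps the ridge active, had 0.284 to 0.484 FPKM (median 0.371) in dB and 11.1 to 25.2 FPKM (median 15.8) in limb, a difference of -3.64 ± 0.20. Cyp26b1, which breaks down retinoic acid in the distal bud, had 0.341 to 1.199 FPKM (median 0.737) in dB and 21.0 to 65.7 FPKM (median 52.0) in limb, a difference of -4.82 ± 0.40 (adjusted p = 9.47e-12). Shh, as given above, Wnt7a, Sp8, Sp9 and En1 were not called, and they act in the neural tube too. Fgf17, an Fgf of the border between midbrain and hindbrain, had 6.28 to 14.3 FPKM (median 10.4) in dB and 0.576 to 1.12 FPKM (median 0.870) in limb.

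Of 16 cartilage genes 5 were lower in dB and Sox6 was higher (37.5% called, against 11.7% of all tested genes). Col9a1, a collagen chain of cartilage, had 2.90 to 5.56 FPKM (median 4.23) in dB and 16.8 to 49.8 FPKM (median 27.4) in limb, a difference of -2.62 ± 0.49 (adjusted p = 4.91e-05). Matn4, a cartilage matrix protein, had 0 to 0.209 FPKM (median 0.0474) in dB and 0.755 to 18.5 FPKM (median 3.43) in limb, and Gdf5, a signal of future joints, had 0.344 to 1.15 FPKM (median 0.851) in dB and 1.17 to 9.74 FPKM (median 3.16) in limb. Values did not overlap for these 3 genes, while those of Col9a2 and Col9a3, also lower in dB, did. Sox9 and Col2a1, which mark early cartilage but are also made in the neural tube, were not called, with medians of 26.0 and 33.3 FPKM in dB and 26.96 and 41.4 FPKM in limb. Sox6, a partner of Sox9, had 3.82 to 13.5 FPKM (median 7.49) in dB and 1.38 to 4.73 FPKM (median 2.67) in limb, with overlap, and it was not called without dB replicate 2 (difference 0.98). Among muscle genes 9 of 14 were lower in dB, and Pax3 and Pax7 were higher (78.6% called, against 11.7% of all tested genes). Myog, a muscle regulatory factor, had 0 to 0.0389 FPKM (median 0) in dB and 1.12 to 17.4 FPKM (median 6.53) in limb, and Actc1, an early muscle actin, had 0.138 to 0.497 FPKM (median 0.1995) in dB and 1.58 to 49.4 FPKM (median 9.20) in limb. Both varied widely among limb libraries, with replicate 6 the highest for each.

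Wnt genes were called in both directions, 13 higher and 8 lower in dB among 42 (50% called, against 11.7% of all tested genes). Among the ligands, Wnt8b, Wnt3a, Wnt1, Wnt7b and Wnt2b were higher in dB and Wnt5a, Wnt11 and Wnt6 lower. Wnt5a, a ligand of outgrowth and cell polarity, had 5.38 to 10.6 FPKM (median 8.83) in dB and 26.7 to 83.0 FPKM (median 65.4) in limb, a difference of -2.66 ± 0.32 (adjusted p = 2.16e-08). Wnt7b had 18.7 to 43.8 FPKM (median 40.9) in dB and 2.52 to 12.04 FPKM (median 8.48) in limb, a difference of 2.17 ± 0.35. These ligands had no overlapping values. Among secreted inhibitors, Sfrp1 was higher in dB, with 30.2 to 82.6 FPKM (median 75.0) in dB and 6.99 to 18.8 FPKM (median 10.01) in limb, while Frzb, Wif1, Dkk1 and the lipase Notum were lower. Wif1 had 1.25 to 3.91 FPKM (median 2.62) in dB and 12.3 to 26.0 FPKM (median 13.5) in limb. Of the receptors, Fzd9, Fzd3 and Fzd8 were higher in dB and no Fzd gene was called lower. Of the nuclear factors, Tcf7l2 was higher in dB and Tcf7 was lower, and Lef1, Tcf7l1 and the pathway target Axin2 were not called.

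In the Fgf pathway 4 genes were higher and 9 lower in dB among 20 (65% called, against 11.7% of all tested genes). Fgf15, an Fgf of the neural tube, had 18.5 to 33.4 FPKM (median 21.9) in dB and 0.0705 to 0.718 FPKM (median 0.281) in limb, a difference of 4.21 ± 0.40 (adjusted p = 1.57e-10), and the receptor Fgfr3 had 18.9 to 47.0 FPKM (median 37.5) in dB and 1.42 to 7.33 FPKM (median 3.95) in limb. Targets and feedback inhibitors of Fgf signalling were lower in dB. Etv4 had 2.91 to 5.76 FPKM (median 4.18) in dB and 21.4 to 32.6 FPKM (median 24.6) in limb, and Spry4 had 0.729 to 1.45 FPKM (median 1.14) in dB and 7.69 to 13.6 FPKM (median 11.1) in limb. Etv5, Spry2 and Dusp6, a phosphatase of ERK, were lower too, with differences of -1.65 ± 0.22, -1.73 ± 0.21 and -2.20 ± 0.26, while Spry1 was not called (-0.44 ± 0.19).

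In the Bmp and Tgf-beta pathway 4 genes were higher and 8 lower in dB among 26 (46.2% called, against 11.7% of all tested genes). Bmp4 had 4.81 to 7.45 FPKM (median 6.79) in dB and 26.5 to 35.4 FPKM (median 31.1) in limb, a difference of -2.09 ± 0.27 (adjusted p = 8.79e-08), and Bmp2 had 0.333 to 0.831 FPKM (median 0.645) in dB and 1.17 to 8.48 FPKM (median 4.82) in limb. Bmp6, a roof plate ligand, was higher in dB, with 2.58 to 4.51 FPKM (median 3.76) in dB and 0.198 to 0.571 FPKM (median 0.405) in limb. The Id genes, targets of Bmp signalling that block bHLH factors, went separate ways. Id4 had 58.3 to 190.5 FPKM (median 148) in dB and 1.41 to 5.86 FPKM (median 3.91) in limb, a difference of 4.73 ± 0.34 (adjusted p = 2.25e-13), and Id1 had 31.8 to 54.7 FPKM (median 39.8) in dB and 127 to 159 FPKM (median 138) in limb, a difference of -1.74 ± 0.21 (adjusted p = 2.13e-08). Neither had overlapping values. Id2 and Id3 were not called, with medians of 90.1 and 193 FPKM in dB and 96.9 and 188 FPKM in limb. The secreted inhibitors Nog and Fst were higher in dB and Grem1 lower.

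Retinoic acid genes were lower in dB where they were called, 6 of 15 (40%, against 11.7% of all tested genes). Aldh1a2, the main enzyme of retinoic acid synthesis at this stage, had 0.0687 to 0.812 FPKM (median 0.184) in dB and 2.20 to 21.0 FPKM (median 8.89) in limb, a difference of -2.81 ± 0.45 (adjusted p = 5.81e-06), and the receptor Rarg had 3.92 to 8.73 FPKM (median 7.88) in dB and 32.6 to 75.9 FPKM (median 59.8) in limb. Neither overlapped. The binding proteins Crabp1 and Crabp2 were among the genes of high level in both tissues and were not called, with medians of 225 and 166 FPKM in dB and 169 and 299 FPKM in limb. Of 16 Hedgehog genes only Foxf2 was called (6.25%, against 11.7% of all tested genes). It had 4.10 to 8.26 FPKM (median 5.24) in dB and 0.0825 to 0.783 FPKM (median 0.566) in limb. The target Gli1 had 6.12 to 10.2 FPKM (median 8.28) in dB and 7.87 to 24.2 FPKM (median 19.6) in limb, a difference of -0.93 ± 0.28 that passed neither the threshold on fold nor a separation of the groups, and Ptch1 had 15.6 to 31.2 FPKM (median 21.5) in dB and 15.1 to 34.4 FPKM (median 31.5) in limb.

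Axon guidance genes were higher in dB in 10 cases and lower in 6 of 26 (61.5% called, against 11.7% of all tested genes). Robo3, a receptor of commissural axons, had 5.17 to 12.2 FPKM (median 8.84) in dB and 0.0185 to 0.128 FPKM (median 0.0223) in limb, a difference of 3.17 ± 0.27 (adjusted p = 1.68e-11), and Dcc, the netrin receptor, had 6.48 to 19.6 FPKM (median 8.35) in dB and 0.0519 to 0.455 FPKM (median 0.101) in limb. Nrp2, a semaphorin coreceptor also of vessels, had 3.91 to 14.2 FPKM (median 9.07) in dB and 12.8 to 61.5 FPKM (median 42.5) in limb, and its values overlapped. The class 3 semaphorins Sema3a and Sema3f, secreted from mesenchyme along nerve paths, were lower in dB (-1.37 ± 0.19 and -1.40 ± 0.21), and so were Nrp1, Robo2 and Slit3. Slit1 and Slit2 were higher (1.65 ± 0.20 and 1.19 ± 0.15).

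The study was about the genes of primary cilia. None of 31 genes of intraflagellar transport and its motors was called, nor any of 15 of the BBSome and Arl genes, 23 of the transition zone and 22 of basal bodies and centrioles. The median differences of these 4 lists lay between 0.00 and 0.13. By limma's unadjusted p under 0.05 the lists had 10, 7, 10 and 10 genes and by the adjusted p alone 5, 7, 10 and 5. Of all tested genes 11.7% were called, 42.9% had such an unadjusted p and 35.5% passed the adjusted p alone. Arl13b, a small GTPase of the ciliary membrane, had 4.70 to 6.11 FPKM (median 5.48) in dB and 5.79 to 8.40 FPKM (median 7.67) in limb. Among 22 genes of the ciliary membrane and trafficking only Rab34, a GTPase of ciliary vesicles, was called, with 15.0 to 22.9 FPKM (median 19.2) in dB and 43.5 to 50.8 FPKM (median 47.4) in limb, a difference of -1.26 ± 0.13 (adjusted p = 6.65e-10). Its values did not overlap.

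Of 32 axonemal genes of motile cilia listed 14 passed the filter, and 4 of the 14 were higher in dB (28.6%, against 7.97% of all tested genes). Genes under 1 FPKM in every limb library, such as Rsph1, passed the filter through other tissues. That favours a call of higher in dB, so the share is not a measure of enrichment. Rsph1, of the radial spoke head, had 1.55 to 2.67 FPKM (median 2.39) in dB and 0.192 to 0.582 FPKM (median 0.355) in limb, a difference of 1.28 ± 0.14 (adjusted p = 4.39e-09), and Spef1, a microtubule-bundling protein, had 7.17 to 16.6 FPKM (median 13.4) in dB and 2.49 to 7.08 FPKM (median 5.54) in limb. Lrrc23 and Ccdc40 were the other two, at medians of 2.01 and 3.79 FPKM in dB and 0.444 and 1.36 FPKM in limb. Spef1 was not called without limb replicate 4 (difference 0.95), Lrrc23 not without dB replicate 4, dB replicate 6 or limb replicate 5 (0.94 to 0.99), and Ccdc40 not without any of 6 libraries taken 1 at a time (0.95 to 0.99). Without replicate 4 of both tissues 3 axonemal genes were called. Of 11 regulators of multiciliated cells 6 were higher in dB (54.5%, against 7.97% of all tested genes). Foxj1, Rfx4 and Ccno too passed the filter through tissues other than limb. Foxj1, the master regulator of motile cilia, had 2.83 to 7.41 FPKM (median 5.28) in dB and 0.249 to 0.498 FPKM (median 0.356) in limb, a difference of 2.13 ± 0.16 (adjusted p = 9.37e-13), and Rfx4, a factor of cilia genes in the neural tube, had 11.7 to 24.6 FPKM (median 17.9) in dB and 0.0245 to 0.780 FPKM (median 0.281) in limb, a difference of 3.82 ± 0.20. Ccno, a cyclin of centriole amplification, had 2.30 to 4.81 FPKM (median 3.26) in dB and 0 to 0.0971 FPKM (median 0.0791) in limb. Gm606 and Mcin, the regulators now named Gmnc and Mcidas, and Trp73 were the others, with medians of 4.18, 1.198 and 2.82 FPKM in dB and 0.267, 0 and 0.562 FPKM in limb, where Mcin was listed at 0 in all 6 libraries. Mcin was not called without dB replicate 6 and did not pass the filter without dB replicate 5. Among 15 tubulin-modifying enzymes only Vash1 was called (1.16 ± 0.31), with overlapping values, and it was not called without limb replicate 4 (0.90). This was 6.67% of the list, against 11.7% of all tested genes.

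Of 8 genes chosen among the ciliary genes that the study names, only Pkp3 was called, and 11.7% of all tested genes were. By limma's adjusted p alone 5 of the 8 passed, as did 35.5% of all tested genes. The study names more ciliary genes that are not among the 8, such as Tubb3, given above, so the 8 do not stand for all of them. Tulp3, an adaptor that brings receptors into cilia, had 8.93 to 11.81 FPKM (median 10.2) in dB and 9.36 to 19.9 FPKM (median 16.6) in limb (difference -0.53 ± 0.16). Pkp3, a desmosomal plakophilin of epithelia, had 0.355 to 0.898 FPKM (median 0.795) in dB and 1.77 to 4.03 FPKM (median 3.01) in limb, a difference of -1.16 ± 0.17 (adjusted p = 1.13e-06), and markers of surface epithelium were lower in dB too, as given below. Tmem107, of the transition zone, was at a median of 14.1 FPKM in dB and 7.98 FPKM in limb. Flna, Rab3il1, Pcm1 and Cep135 gave differences of -0.32 ± 0.22, -0.01 ± 0.18, 0.12 ± 0.10 and -0.30 ± 0.07.

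None of 24 cell cycle genes was called by limma, against 11.7% of all tested genes, and the median difference of the list was -0.05. By limma's unadjusted p under 0.05 the list had 11 genes (45.8%, against 42.9% of all tested genes). Mki67, a marker of cycling cells, had medians of 35.6 FPKM in dB and 35.6 FPKM in limb. The cyclin-dependent kinase inhibitor Cdkn1b, which rises as neurons leave the cycle, had 34.9 to 64.1 FPKM (median 51.0) in dB and 17.8 to 31.2 FPKM (median 27.2) in limb, just short of the threshold with a difference of 0.94 ± 0.21. It was called without dB replicate 1, dB replicate 4 or limb replicate 3 (1.00 to 1.03). Of 21 genes of glycolysis and hypoxia only Eno2, the neuronal enolase, was higher and the glucose transporter Slc2a3 lower. These were 9.52% of the list, against 11.7% of all tested genes. Of 7 immediate early genes Btg2, which marks neuron-producing progenitors, was higher and Ier2 lower (28.6% called, against 11.7% of all tested genes).

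Imprinted genes were lower in dB in 7 of 24 cases and higher in 2 (37.5% called, against 11.7% of all tested genes). Igf2, a growth factor of embryonic mesenchyme, had 77.2 to 171 FPKM (median 142) in dB and 435 to 995 FPKM (median 828) in limb, a difference of -2.53 ± 0.41 (adjusted p = 7.16e-06), and H19, the non-coding RNA of the same locus, had 0.583 to 1.48 FPKM (median 0.817) in dB and 5.63 to 16.7 FPKM (median 10.6) in limb, a difference of -2.53 ± 0.24. Asb4 had 5.21 to 7.75 FPKM (median 6.80) in dB and 91.7 to 228 FPKM (median 118) in limb, the largest difference of the list at -4.08 ± 0.17 (adjusted p = 3.17e-19). No dB value of these 3 genes reached a limb value. Peg3 and Peg10 were lower too. Plagl1, a zinc finger factor, was higher, with 48.2 to 81.2 FPKM (median 70.1) in dB and 14.5 to 32.1 FPKM (median 17.8) in limb. Snrpn was higher as well, but it shares transcripts with Snurf, between which the estimates could be divided, and Snurf had medians of 43.6 FPKM in dB and 30.3 FPKM in limb.

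Of 22 genes of fibrillar collagens and matrix, 3 were higher in dB and Vcan was lower. These were 18.2% of the list, against 11.7% of all tested genes. Lum, a small proteoglycan, had 43.6 to 49.6 FPKM (median 47.3) in dB and 4.95 to 16.4 FPKM (median 10.3) in limb, a difference of 2.20 ± 0.58 (adjusted p = 0.00291), and Sparc had 91.6 to 120.0 FPKM (median 107) in dB and 35 to 52.7 FPKM (median 40.2) in limb. Neither overlapped. The collagen gene Col1a1 had 23.0 to 88.3 FPKM (median 43.6) in dB and 7.53 to 46.4 FPKM (median 16.4) in limb, and its difference of 1.32 ± 0.60 did not pass the test (adjusted p = 0.0904). Vcan was not called without dB replicate 1, dB replicate 3 or limb replicate 6 (differences -0.999 to -0.920), and Col1a1 was called without limb replicate 6 (1.598). Without replicate 4 of both tissues 2 matrix genes were higher and none was lower. Markers of mesenchyme were counted beside these genes. Summed over 10 markers they came to 235 to 445 FPKM in dB (median 300.5) and 503.8 to 797 FPKM in limb (median 582). Of the 10, 5 were lower and Lum was higher in dB (60% called, against 11.7% of all tested genes). Of 10 markers of head mesenchyme and meninges, Foxd1 had 6.85 to 15.2 FPKM (median 12.7) in dB and 0.0489 to 0.687 FPKM (median 0.0835) in limb and Crym was higher too, while Tbx18 was lower. These calls were 30% of that list. Crym lost its call when any of 10 of the 12 libraries was left out (adjusted p = 0.0526 to 0.0879). The part of mesenchyme in the matrix values was not tested.

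**Figure D4:**
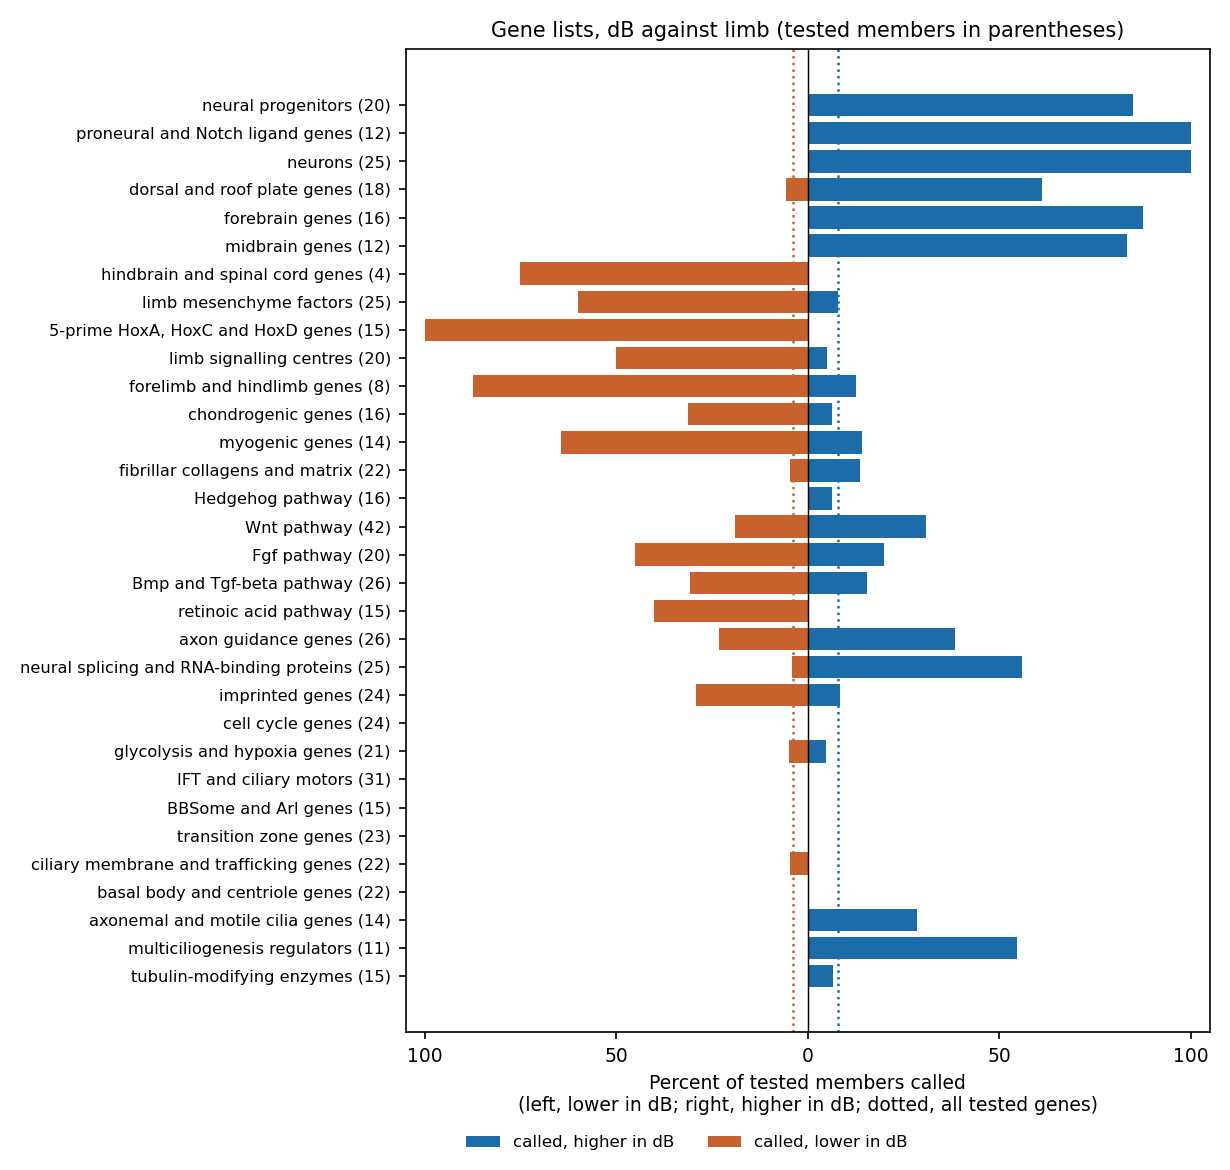
Percent of the tested members of each gene list called higher in dB (blue, to the right) or lower in dB (orange, to the left), with the number tested in parentheses and dotted lines at the shares of all tested genes (7.97% and 3.75%). All 25 neuronal genes were called higher and all 15 5′ Hox genes lower, and the lists of intraflagellar transport, BBSome, transition zone and basal body genes have no call.

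Markers of other cell types were counted in the same way. Of all tested genes 7.97% were called higher and 3.75% lower in dB, and 42.9% had an unadjusted p of limma under 0.05. The adjusted p alone was passed by 35.5%, and values did not overlap for 22.3%. Of 11 surface epithelium markers 9 were lower in dB and none was higher, with summed levels of 19.8 to 27.7 FPKM in dB and 120.4 to 212 FPKM in limb. Krt5, a basal keratin, had 0.109 to 1.98 FPKM (median 0.939) in dB and 19.2 to 53.9 FPKM (median 36.6) in limb. The summed muscle markers came to 1.61 to 2.79 FPKM in dB and 13.7 to 104 FPKM in limb, and all 6 were lower in dB. None of 11 endothelial markers was called by limma (5 at an unadjusted p under 0.05), with sums of 90.5 to 122 FPKM in dB and 78.5 to 114 FPKM in limb. None of 8 erythroid markers was called by limma (0 at an unadjusted p under 0.05), with sums of 10632 to 36224 FPKM in dB and 10695 to 27048 FPKM in limb. The erythroid sums were highest in dB replicates 1 and 4 and in limb replicate 4. All 9 macrophage markers had positive differences, 5 without overlap, but none was called at the threshold on fold (9 at an adjusted p under 0.05 alone, and 4 called without limb replicate 6), and their sum was 32.7 to 46.6 FPKM in dB and 12.7 to 25.4 FPKM in limb. Of 8 markers of crest glia and Schwann cells, Fabp7, which radial glia share, was higher and Erbb3 lower, and Sox10 was at no more than 0.312 FPKM in any dB library. Of 5 markers of sensory ganglia 1 was higher (Pou4f1, also a midbrain gene) and 1 lower.

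RNA-binding proteins and splicing factors of neurons were higher in dB in 14 of 25 cases (60% called in either direction, against 11.7% of all tested genes). Elavl3, a neuronal Hu protein, had 14.4 to 72.1 FPKM (median 41.0) in dB and 0.0779 to 1.61 FPKM (median 0.107) in limb, a difference of 4.96 ± 0.43 (adjusted p = 2.50e-11), and Celf3 had 23.6 to 54.6 FPKM (median 43.4) in dB and 0.0488 to 1.73 FPKM (median 0.145) in limb. Srrm4, a splicing factor of short neuronal exons, had 3.22 to 11.82 FPKM (median 7.25) in dB and 0 to 0.325 FPKM (median 0.0313) in limb, a difference of 2.90 ± 0.24. Esrp1, a splicing factor of epithelia, was the only one lower, with 1.02 to 1.83 FPKM (median 1.36) in dB and 4.62 to 9.38 FPKM (median 6.28) in limb. Ptbp1, a repressor of neuronal exons, had 131 to 191 FPKM (median 147) in dB and 208 to 289 FPKM (median 252) in limb, and Ptbp2, its neural relative, had 101 to 146 FPKM (median 129) in dB and 66.8 to 85.5 FPKM (median 79.5) in limb. Neither reached a fold change of 2 (differences -0.69 ± 0.15 and 0.70 ± 0.10), yet the log2 ratio of Ptbp2 to Ptbp1, of FPKM + 1, lay between -0.64 and 0.07 in dB (median -0.28) and between -2.01 and -1.29 in limb (median -1.70), without overlap. The ubiquitous relatives Elavl1 and Celf1 had differences of -0.02 ± 0.12 and 0.20 ± 0.19 and were not called.

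Some pairs of related genes changed places between the tissues. In 8 of the 30 pairs compared, one gene had the higher FPKM in every dB library and the other in every limb library. The log2 ratio of Wnt8b to Wnt5a (FPKM + 1 in both) lay between 0.68 and 1.62 in dB and between -6.39 and -4.77 in limb. Fgf15 over Fgf10 lay between 4.03 and 4.93 in dB and between -3.22 and -2.13 in limb. The LIM factors Lhx2 and Lhx9 gave log2 ratios of 2.47 to 3.40 in dB and -0.89 to -0.27 in limb, with Lhx9 at 9.96 to 27.7 FPKM (median 17.1) in dB and 51.0 to 71.6 FPKM (median 67.8) in limb. These 3 pairs were among the 8.

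The share that each transcript took of its gene's FPKM was compared as well, since it does not depend on the level of the gene. Among 10430 transcripts of 4103 genes expressed in both tissues, 175 (1.68%) were called, that is, had a mean share that differed by 0.2 or more with an adjusted p under 0.05, 88 higher and 87 lower in dB. Shares of a gene add up to the whole, so a rise in a transcript brings a fall in others, and a near balance of directions is built in. The 175 transcripts belonged to 102 genes, of which 20 were also called in their level. For 37 of the 102 genes, a pair of transcripts with opposite changes differed in length by exactly the length of a single internal coding exon in the GENCODE annotation, and 31 of these had no overlap in the share of the pair that carries the exon. Each pair was chosen through a called transcript of these same libraries, so the separation follows in large part from that choice. In 33 of the 37 genes the length of such an exon was a multiple of 3. The match rests on length, and the shares are Cufflinks estimates and not counts of reads over splice junctions.

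Of the 31 genes without overlap, exons of 11 are printed as transcribed in GENCODE M21 (GRCm38), chosen after their values were seen. Capitals mark the exon, and 12 bases of each neighbouring exon stand in lower case:
Prom1 exon: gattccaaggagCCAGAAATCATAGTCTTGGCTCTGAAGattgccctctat
Dync1i2 exon: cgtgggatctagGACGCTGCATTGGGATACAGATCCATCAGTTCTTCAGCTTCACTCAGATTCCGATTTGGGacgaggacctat
Cadm1 exon: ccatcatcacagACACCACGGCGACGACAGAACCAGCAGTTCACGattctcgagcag
Map3k7 exon: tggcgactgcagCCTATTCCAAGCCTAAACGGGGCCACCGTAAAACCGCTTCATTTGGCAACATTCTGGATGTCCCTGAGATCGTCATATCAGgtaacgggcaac
Mark3 exon: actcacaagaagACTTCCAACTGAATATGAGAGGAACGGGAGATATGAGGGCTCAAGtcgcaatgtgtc
App exon: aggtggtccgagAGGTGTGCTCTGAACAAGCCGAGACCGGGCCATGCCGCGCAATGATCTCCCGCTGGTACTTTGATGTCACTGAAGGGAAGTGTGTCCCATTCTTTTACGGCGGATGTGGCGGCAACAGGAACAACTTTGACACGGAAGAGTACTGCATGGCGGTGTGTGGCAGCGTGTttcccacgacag
Cttn exon: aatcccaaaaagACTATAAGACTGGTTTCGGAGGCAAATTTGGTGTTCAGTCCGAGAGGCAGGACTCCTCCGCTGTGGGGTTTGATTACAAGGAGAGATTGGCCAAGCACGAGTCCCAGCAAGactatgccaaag
Golim4 exon: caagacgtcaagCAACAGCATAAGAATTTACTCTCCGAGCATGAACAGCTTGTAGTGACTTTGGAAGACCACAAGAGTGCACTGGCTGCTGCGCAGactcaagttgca
Unc5b exon: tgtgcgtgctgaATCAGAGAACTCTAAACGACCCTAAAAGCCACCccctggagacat
Camk2g exon: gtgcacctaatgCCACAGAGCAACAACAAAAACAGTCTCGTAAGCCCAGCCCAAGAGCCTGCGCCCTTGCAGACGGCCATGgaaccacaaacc
Uap1 exon: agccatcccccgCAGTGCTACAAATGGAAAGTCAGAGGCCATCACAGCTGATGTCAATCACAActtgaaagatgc

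Within the transcript pair, more of the exon was used in dB in the first 5 of these genes. Other transcripts of the gene are left out of these percents, so exon use over the whole gene is not given. Prom1, not called in its level, carried its exon of 27 bases (chr5:44058626-44058652, minus strand) in 54.6 to 92.2% (median 68.2%) of the pair in dB and 0.00116 to 5.30% (median 0.278%) in limb. The share of its transcript without the exon (uc008xif.2) was 4.76 to 34.9% (median 20.2%) in dB and 90.3 to 97.7% (median 95.6%) in limb (adjusted p = 2.30e-06), without overlap. Another called Prom1 transcript (uc012dvw.1), outside the pair, took 20.4 to 32.4% in dB and at most 0.000364% in limb. Dync1i2, an intermediate chain of cytoplasmic dynein, carried its exon of 60 bases (chr2:71233649-71233708, plus strand) in 39.2 to 99.8% (median 63.0%) in dB and 1.91e-07 to 5.03% (median 1.27%) in limb. Its transcripts with and without the exon had median shares of the gene of 28.3 and 16.5% in dB and 0.604 and 45.1% in limb. The cell adhesion gene Cadm1 carried 33 bases (chr9:47829377-47829409, plus strand) in 72.0 to 84.2% (median 79.9%) in dB and 31.6 to 50.5% (median 42.7%) in limb. Map3k7, the kinase TAK1 of Bmp and Tgf-beta signalling, carried 81 bases (chr4:31994874-31994954, plus strand) in 67.6 to 83.9% (median 75.9%) in dB and 32.5 to 46.8% (median 40.5%) in limb. Mark3, a kinase of microtubule-associated proteins, carried 45 bases (chr12:111653390-111653434, plus strand) in 58.4 to 80.5% (median 66.6%) in dB and 18.9 to 34.2% (median 28.8%) in limb. The dB and limb values of these 5 genes did not overlap.

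Within the pair, less of the exon was used in dB in the other 6. App, the amyloid precursor protein, has an exon of 168 bases (chr16:85043576-85043743, minus strand) that codes for a Kunitz protease inhibitor domain, and it was carried in 21.1 to 29.8% (median 27.2%) in dB and 53.0 to 70.2% (median 63.0%) in limb. Its transcript without that exon (uc007zto.2) took 53.7 to 62.2% (median 57.8%) of all App FPKM in dB and 17.7 to 26.1% (median 22.1%) in limb (adjusted p = 1.51e-06). Cttn, which encodes the actin-binding protein cortactin, carried 111 bases (chr7:144450978-144451088, minus strand) that code for an actin-binding repeat in 24.2 to 39.1% (median 31.4%) in dB and 70.5 to 80.4% (median 78.5%) in limb. The Golgi protein Golim4 carried 84 bases (chr3:75902401-75902484, minus strand) in 19.8 to 38.7% (median 31.3%) in dB and 89.4 to 95.0% (median 92.4%) in limb, and its transcript without them (uc008pnf.1) took 60.9 to 78.5% (median 68.0%) of the gene's FPKM in dB and 4.95 to 10.5% (median 7.49%) in limb (adjusted p = 5.44e-08). Unc5b, a netrin receptor, carried 33 bases (chr10:60777185-60777217, minus strand) in 28.5 to 65.3% (median 45.3%) in dB and 82.4 to 99.9% (median 91.2%) in limb, and the kinase Camk2g carried 69 bases (chr14:20745792-20745860, minus strand) in 2.86 to 16.6% (median 6.60%) in dB and 31.7 to 43.1% (median 35.04%) in limb. Uap1, an enzyme of UDP-N-acetylglucosamine synthesis, has its exon of 48 or 51 bases, at chr1:170147996-170148043 or chr1:170147996-170148046 on the minus strand and printed in the longer form. Its transcript without the exon (uc007dly.1) took 75.2 to 87.7% (median 80.7%) in dB and 4.12 to 15.8% (median 8.95%) in limb (adjusted p = 7.08e-08), and the transcript with 51 bases (uc007dlx.1) took 10.2 to 16.5% (median 14.6%) in dB and 62.7 to 75.6% (median 65.9%) in limb. These groups did not overlap either.

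**Figure D5:**
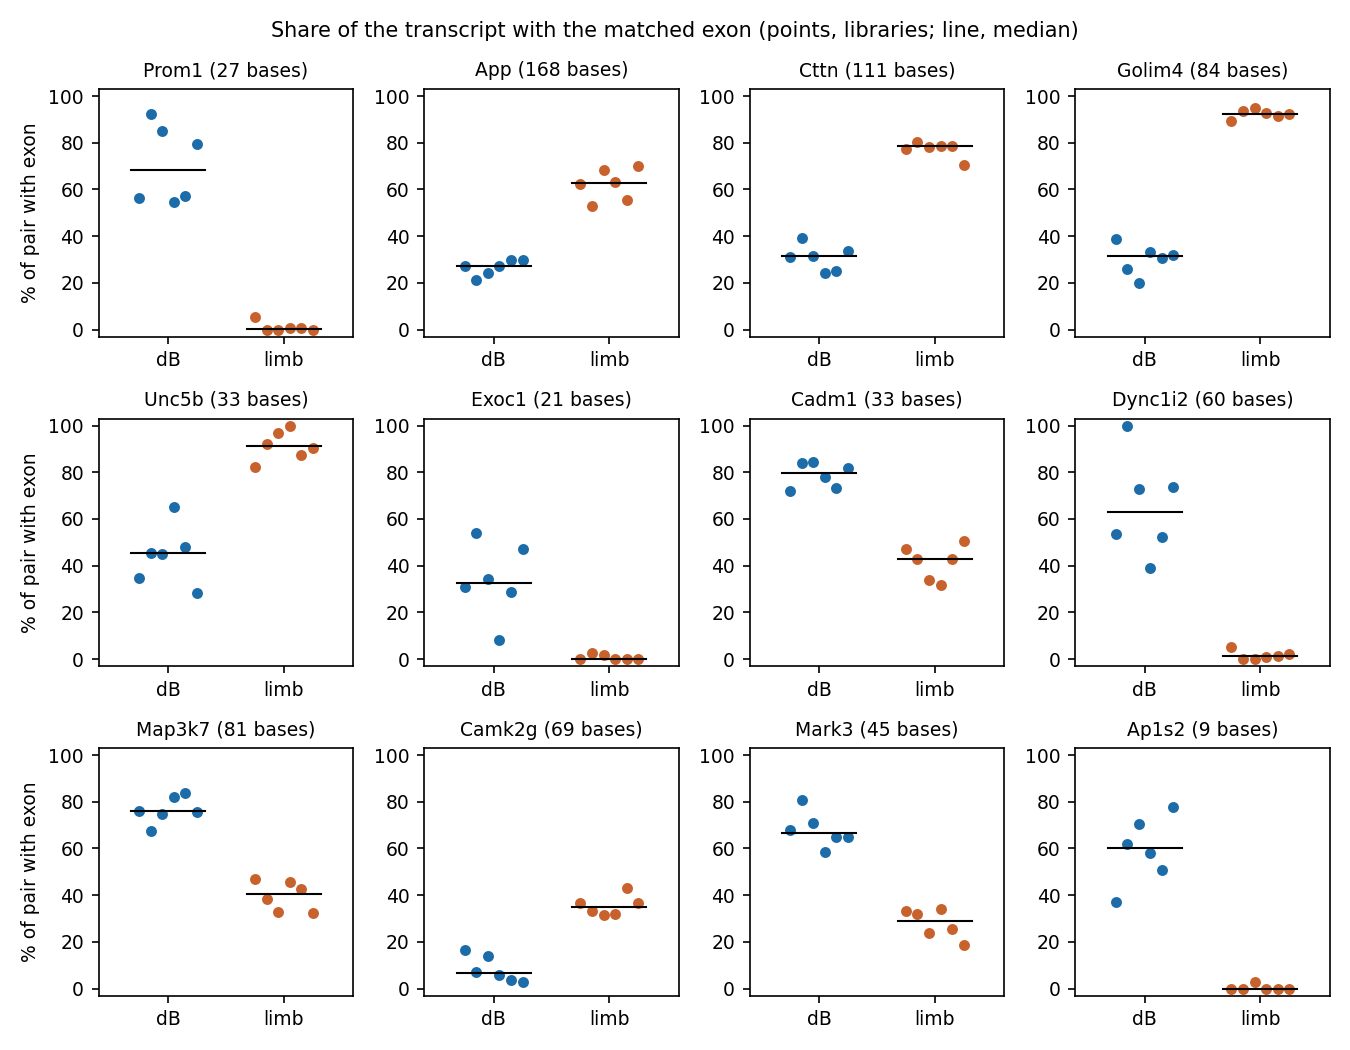
Percent of the FPKM of a transcript pair that carries the matched exon (y axis) in each of the 6 dB libraries (left, blue) and the 6 limb libraries (right, orange), with a line at the median and the exon length beside the gene. Prom1, Exoc1, Cadm1, Dync1i2, Map3k7, Mark3 and Ap1s2 are higher in dB, and App, Cttn, Golim4, Unc5b and Camk2g are lower.

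The matches were also split by exon length. They are matches of transcript pairs, and the exons of Uap1 and Mdm4 each entered in a shorter and a longer form. Of the 41 matches, 8 had an exon of 27 bases or fewer, a size often called a microexon. All 8 had shares without overlap, which the choice of pairs favours, and 7 of them were carried more in dB. They lie in Ap1s2, Dctn4, Exoc1, Fam168a, Idh3g, Prom1 and Sh3glb2, and Dtnb, with an exon of 21 bases, was the exception at a median of 23.5% in dB and 68.7% in limb. Ap1s2, a subunit of a clathrin adaptor, carried 9 bases in 37.0 to 77.9% (median 60.03%) in dB and 9.78e-05 to 2.70% (median 0.000730%) in limb, and Exoc1, of the exocyst, carried 21 bases in 8.15 to 53.8% (median 32.6%) in dB and 0.000643 to 2.62% (median 0.000875%) in limb. Of the 33 matches with longer exons 25 had no overlap, 11 carried more and 14 less in dB, with both forms of Uap1 among the 14. The limit of 27 bases was chosen after the values were seen, and the difference between the length classes was not tested.

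Of 40 genes chosen for known neural isoforms, 29 had transcripts that could be tested and 11 transcripts of 6 genes were called, of 94 tested. Of all 10430 tested transcripts 175 (1.68%) were called. Besides App, Cadm1 and Camk2g these were Bin1, Kif1b and Rtn4. The long transcript of Rtn4 (uc007ihk.2), which encodes a form of the neurite outgrowth inhibitor Nogo, took 52.7 to 79.2% (median 60.3%) in dB and 29.2 to 44.2% (median 30.9%) in limb (adjusted p = 0.00119). A transcript of the kinesin Kif1b (uc008vwa.1) took 24.4 to 35.3% (median 29.9%) in dB and 47.1 to 58.1% (median 55.2%) in limb. Bin1, which bends membranes, had a transcript (uc008ejj.1) at 24.1 to 41.0% (median 37.0%) in dB and 67.6 to 78.2% (median 72.6%) in limb. In each case the values of the tissues were apart, as they were for 157 of the 175 called transcripts.

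Many of these differences were also seen between vB and MNP. In that comparison 1863 genes (13.4%) were called, 1052 higher and 811 lower in vB. Of the 1633 genes called between dB and limb 1205 were among them, which is 73.8% of the dB calls and 64.7% of the vB calls, and 1194 had the same direction. By direction, 833 of the 1111 genes higher in dB were higher in vB, and 361 of the 522 lower in dB were lower in vB. Fabp7 had 214 to 649 FPKM (median 304) in vB and 2.10 to 2.81 FPKM (median 2.32) in MNP, a difference of 6.60 ± 0.49, and Tubb3 had 251 to 871 FPKM (median 539) in vB and 8.22 to 23.5 FPKM (median 14.4) in MNP, a difference of 5.10 ± 0.27. The proneural and neuronal lists were called in vB as in dB, with 12 of 12 and 25 of 25 higher, and of the 15 genes of the 5′ Hox list none was called between vB and MNP (1 at an unadjusted p under 0.05, by limma). Other lists were not alike. Of 22 matrix genes 3 were higher and 1 lower in dB, while none was higher and 16 were lower in vB. Of the regulators of multiciliated cells 6 were higher in dB and 2 in vB, and of the axonemal genes 4 and 1.

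The difference between the dB and limb contrast and the vB and MNP contrast was tested itself. It was called for 538 genes (3.86%), 356 with a larger and 182 with a smaller value for dB over limb, or 278 and 228 with quantile normalization, and 259 of the genes called between dB and limb were among them. The lowest values were those of limb Hox genes, which were near 0 in MNP. Hoxd13 had 0 to 0.0219 FPKM (median 0) in vB and 0 to 0.0467 FPKM (median 0) in MNP, and the differences differed by -7.13 ± 0.30 (adjusted p = 4.53e-19). Hoxa10 had 0 to 0.0272 FPKM (median 0) in vB and 0 to 0.0858 FPKM (median 0.0188) in MNP, and the differences differed by -6.93 ± 0.08 (adjusted p = 3.60e-35). Hoxa11as, the third, was listed at 0 in all 6 vB libraries and had at most 0.114 FPKM in MNP. At the other end Barx1, a homeobox gene of jaw mesenchyme, had 0.102 to 5.82 FPKM (median 0.276) in vB and 149 to 194 FPKM (median 176) in MNP, against 0.0640 to 0.316 FPKM (median 0.105) in dB and 0.251 to 0.767 FPKM (median 0.374) in limb, and the differences differed by 6.25 ± 0.46 (adjusted p = 2.41e-12). Irx1, an Iroquois gene, had 13.6 to 22.1 FPKM (median 19.2) in dB and 0.214 to 3.20 FPKM (median 0.615) in limb, against 1.12 to 15.0 FPKM (median 3.74) in vB and 3.93 to 12.1 FPKM (median 7.502) in MNP, and the differences differed by 4.05 ± 0.53 (adjusted p = 1.29e-06). Col8a2, a network-forming collagen, had 1.14 to 14.0 FPKM (median 8.01) in dB and 0.163 to 1.71 FPKM (median 0.663) in limb, against 0.0230 to 6.12 FPKM (median 1.24) in vB and 6.54 to 11.1 FPKM (median 8.29) in MNP (3.96 ± 0.55, adjusted p = 3.62e-06). Of the dorsal list 11 genes were higher in dB than in limb, while 5 were higher and 5 lower in vB than in MNP. Of the Wnt list 13 were higher and 8 lower in dB, and 7 were higher and 20 lower in vB.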

How the data were processed

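For each library the authors deposited a Cufflinks table of 59120 transcripts with FPKM (fragments per length of the transcript and per mapped reads of the library) on mm10 with UCSC transcripts, and a read coverage per transcript. Bowtie2, DESeq2 and mm10 are named in the processing notes of the submitters, and the aligner behind the Cufflinks tables is not given in the sources used here. Left out were 65 transcripts whose gene names hold spaces, and the FPKM values of the other 59055 were summed over 30723 gene symbols, of which 175 lie on several chromosomes. No counts were used here, so the depth is unknown and no counting intervals are given. The coverage the authors deposited was used only to compare the libraries.

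All 35 libraries entered 1 fit of log2(FPKM + 1) with limma 3.58.1 (trend and robust options, R 4.3.3) and a mean for each tissue. Tested were the 13934 genes whose mean reached 1 FPKM in any tissue. Contrasts were dB minus limb, vB minus MNP and the difference between them, with Benjamini-Hochberg adjustment over all tested genes. A pseudocount of 1 FPKM understates changes of low genes. Transcript shares of the 12 dB and limb libraries were fitted on the arcsine of the square root of the share, for genes whose mean reached 5 FPKM in both tissues, with more than 1 FPKM in each library, and for mean shares between 0.05 and 0.95. Tables were read with Python 3.11.15 and pandas 2.3.3, and the fits were tested on simulated data. Replicates are separate pools of embryos according to the study. Alternatives were another pseudocount, no filter, quantile and median-ratio scaling, transcripts under 200 bases left out, the 12 libraries alone, blocks for the replicate number and the run, subsets of the replicates, and other thresholds. Leaving out replicate 1 or replicate 4 of both tissues, and leaving out genes with failed or low-data estimates, were added after the data were seen. The run number was read from the names of the deposited tables.

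The comparison, the gene lists and the lists of markers were chosen with earlier results of these data known. The genes to be named were the 10 called genes with the largest changes in each direction whose values do not overlap, up to 3 called genes of each list and direction or all where 5 or fewer were called, a fixed set of related gene pairs, 8 of the ciliary genes that the study names, the 3 called genes of the difference test with the largest difference in each direction, the 5 called transcripts with the largest difference in share, and called transcripts of the neural isoform list. Other genes and exons were named after their values were seen, among them uncalled genes of the lists, Shh, Foxa2, Nkx2-1, Prrx1, Shox2, Cdkn1b and the microexon genes. Promoter and protein-coding exon sequences came from RefSeq and GENCODE M21 (GRCm38, the build of mm10). A few genes of the lists are counted but not reported here by name.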

Additional observations from a re-analysis of the deposited data

Results flagged for a closer look

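The gap between the highest or lowest library of a tissue and its nearest neighbour, as a share of the range of the 6 libraries in log2(FPKM + 1), was past Dixon's critical value in 52 of 338 groups tested. Tested were groups whose highest library reached 1 FPKM, so some entered only through the library that stood apart. Chance would put about 1 in 20 independent groups past it without such a filter, and these groups also share libraries. Limb replicate 4 gave 19 of the 52, limb replicate 1 gave 12 and dB replicate 4 gave 13.

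Limb replicate 1 was the highest limb library for genes of neural progenitors, neurons and the brain. The gap took 0.943 of the range for Sox3 (2.06 FPKM, against at most 0.0658 FPKM in the other limb libraries), 0.947 for Elavl3, 0.902 for Stmn3, 0.881 for Celf3, 0.860 for Nr2e1, 0.850 for Nkx2-1, 0.839 for Sox2, 0.770 for Hes5, 0.766 for Otx2, 0.732 for Fabp7, 0.710 for Tubb3 and 0.691 for Ina. All but Tubb3 had less than 1 FPKM in the other limb libraries, so they entered this test through replicate 1 alone. Of these 12 genes 11 were called higher in dB than in limb, and Nkx2-1 was not called. The source and the amount of the neural RNA in this library were not tested.

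Limb replicate 4 was the lowest limb library for limb factors and signalling genes. The gap was 0.795 of the range for Tbx4 (6.70 FPKM, against 21.5 to 28.6 FPKM in the other limb libraries), 0.773 for Lmx1b, 0.706 for Hand2, 0.646 for Hoxd12 and 0.639 for Cyp26b1. It was 0.785 for Ptch1, 0.783 for Celf1, 0.781 for Hes1, 0.749 for Vash1, 0.727 for Slit3, 0.722 for Spry2, 0.708 for Wnt6, 0.698 for Elavl1 and 0.669 for Axin2. For Msi1 it was 0.664, for Nrp2 0.637, for Igf2 0.629 and for Spef1 0.628. This library was the highest for Hoxa2, with a gap of 0.867 (3.27 FPKM, against 1.52 to 1.71 FPKM).

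In dB, replicate 4 was the lowest library for Wnt7b, with a gap of 0.807 (18.7 FPKM, against 37.3 to 43.8 FPKM in the other dB libraries). Its gap was 0.722 for Sfrp1, 0.717 for Igf2, 0.698 for Insm1, 0.671 for Rarg, 0.671 for Dll1, 0.662 for Pou3f3, 0.656 for Msi1, 0.653 for Wnt6, 0.653 for Wnt7a, 0.649 for Fzd9, 0.637 for Vash1 and 0.628 for Sema3f. Replicate 2 was the highest dB library for Peg3 (0.709) and Dcc (0.655), replicate 5 for Tcf7 (0.780), Wnt3a (0.724) and Col2a1 (0.638), and replicate 3 the lowest for Rsph1 (0.690). Limb replicate 6 was the highest limb library for Sox10 (0.741) and Plagl1 (0.650).

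The test of the difference between the contrasts set apart dB over limb from vB over MNP by -7.13 for Hoxd13, -6.93 for Hoxa10, 6.25 for Barx1, 4.05 for Irx1 and 3.96 for Col8a2, with the adjusted p of limma given above.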

How the results depend on the processing

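Of 202 genes named with a level, 142 kept their direction and call under every alternative, and of 45 transcripts 25 did. Leaving out 1 library at a time gave 1568 to 1727 called genes between dB and limb, and leaving out replicate 1 or 4 of both tissues gave 173 to 189 transcripts. By the adjusted p alone 4945 genes were called, 3003 higher and 1942 lower in dB, and at a share difference of 0.1 or more 462 transcripts were. In replicates 4 to 6 alone the difference between the contrasts was called for 142 genes and 88 transcripts were called, against 527 genes and 170 transcripts in replicates 1 to 3 alone, and the cause was not tested. With a pseudocount of 0.1 FPKM 2372 genes were called. Depth could not be used to weigh the genes, since the tables hold no counts.

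The deviations of dB and limb libraries with the same replicate number had correlations of 0.39, 0.04, 0.43, 0.70, 0.46 and 0.22 for numbers 1 to 6. The numbers were not taken as pairs, since number 2 stood at 0.04. As a hint from the data, not the design, 5 of the 6 dB libraries correlated best with the limb library of their own number. With the replicate number as a block, 1643 genes were called between dB and limb, 1872 between vB and MNP and 622 for the difference between the contrasts, and 181 transcripts.

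Called without 1 library were Bmp7 (dB replicate 5 or limb replicate 4, -1.01), Msx1 (dB replicate 5, -1.03), Gdf7 (dB replicate 1, 4 or 6, 1.01 to 1.09), Gli1 (limb replicate 4, -1.12), Crabp2 (dB replicate 4, -1.01) and Sp8 (dB replicate 1 or 4 or limb replicate 3, 1.02 to 1.09). Differences near 0 of 9 genes that were not called changed sign, and the cause was not tested. Without 1 library or number they ran between -0.39 and 0.0857 for Col2a1, -0.15 and 0.0452 for Elavl1, -0.27 and 0.0213 for Hes1, -0.27 and 0.00228 for Id2, -0.18 and 0.13 for Id3, -0.19 and 0.17 for Jag1, -0.0412 and 0.16 for Mki67, -0.0808 and 0.0390 for Rab3il1, and -0.39 and 0.00409 for Sox9. Without transcripts under 200 bases Elavl1 was at 0.0227 and Rab3il1 at 0.0332. In replicates 1 to 3 alone Id3 was at -0.14, Jag1 at -0.24, Mki67 at -0.10, Rab3il1 at 0.0666 and Sox9 at 0.20, and in replicates 4 to 6 alone Hes1 was at 0.00149. With the run as a block Id2 was at 0.0885, Jag1 at -0.0655 and Rab3il1 at 0.0562. Median-ratio scaling put Id3 at -0.0469, Jag1 at -0.00855 and Mki67 at -0.0102, and quantile normalization put Jag1 at -0.0450.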
